A study of Mus musculus with 24 samples.

Results

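Expression of 10 target genes of the transcription factor p53 (Cdkn1a, Mdm2, Ccng1, Bax, Bbc3, Phlda3, Sesn2, Trp53inp1, Eda2r and Gdf15) was followed in the mammary tissues of mice given a low dose of ionizing radiation (LDIR). The members were all probes that are not controls and carry one of these gene names on the array. They stand for 10 of 34797 gene names and 14 of 55681 probes: 3 for Cdkn1a, 2 each for Trp53inp1 and Eda2r and 1 for each other gene. Female BALB/c mice, aged 8 to 9 weeks, received a single whole-body X-ray dose of 10 cGy or a sham exposure, and mammary glands were collected 2, 4 or 8 weeks later. Female SPRET/EiJ mice were treated in the same way and sampled at 4 weeks. BALB/c is an inbred laboratory strain that is sensitive to mammary cancer after irradiation and carries a hypomorphic form of DNA-PKcs, a kinase of DNA double-strand break repair. SPRET/EiJ was bred from Mus spretus, a different mouse species, and its sequence under the probes was not analysed here. Each of the 8 groups held 3 tissues, each hybridised to its own array. The labels tell these tissues apart only by a letter, so the p-values measure the spread between arrays of a group. These arrays were used to ask whether the baseline level of the members differed between the strains, and whether 10 cGy left a trace in them weeks later.

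The p53 protein is kept low by Mdm2, a ubiquitin ligase that marks it for degradation, and is stabilised by the kinases Atm and Chk2 when DNA strands break. Stable p53 binds a response element made of a pair of half-sites near its targets and switches on genes that halt the cell cycle, repair DNA or kill the cell. Transcripts of Cdkn1a, Mdm2 and Ccng1 are among the common readouts of irradiation in mouse tissues. In the mammary gland, p53 restrains epithelial growth and is known as a tumour suppressor, and mutations of its gene are frequent in breast cancer.

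Half-sites of p53 near a start of transcription were sought in the RefSeq promoter windows of the members. These ran from 250 bases before to 50 after each start (mouse build GRCm38.p6) and were searched for the p53 consensus half-site of 10 bases. The consensus reads the same on both strands, so a search of the one covers the other. Of the 10 genes, 9 were listed with 13 windows in all, and 4 windows of 4 genes held a match, against 8.36% of all 32851 windows. A match is a description of the letters only, and a single match is not the pair of half-sites that makes a response element. The 250 bases before the start are shown for those 4 windows, 5′ to 3′, with each match in capitals.
Cdkn1a, chr17:29090729-29090978, plus strand: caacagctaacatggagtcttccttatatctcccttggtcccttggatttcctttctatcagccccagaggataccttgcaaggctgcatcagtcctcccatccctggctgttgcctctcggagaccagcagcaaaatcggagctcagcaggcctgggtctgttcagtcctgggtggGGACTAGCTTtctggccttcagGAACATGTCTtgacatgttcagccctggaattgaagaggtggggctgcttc
Mdm2, chr10:117710759-117711008, minus strand: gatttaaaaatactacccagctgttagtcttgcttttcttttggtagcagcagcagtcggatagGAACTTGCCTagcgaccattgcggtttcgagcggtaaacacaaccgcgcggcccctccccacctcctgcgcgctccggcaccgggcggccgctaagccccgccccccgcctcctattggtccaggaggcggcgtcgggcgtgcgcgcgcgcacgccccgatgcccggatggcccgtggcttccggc
Ccng1, chr11:40755287-40755536, minus strand: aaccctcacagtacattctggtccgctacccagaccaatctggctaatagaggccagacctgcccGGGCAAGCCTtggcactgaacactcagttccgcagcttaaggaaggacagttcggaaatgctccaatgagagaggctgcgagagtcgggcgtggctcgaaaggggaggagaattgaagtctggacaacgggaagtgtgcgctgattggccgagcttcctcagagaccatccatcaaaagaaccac
Bax, chr7:45466899-45467148, minus strand: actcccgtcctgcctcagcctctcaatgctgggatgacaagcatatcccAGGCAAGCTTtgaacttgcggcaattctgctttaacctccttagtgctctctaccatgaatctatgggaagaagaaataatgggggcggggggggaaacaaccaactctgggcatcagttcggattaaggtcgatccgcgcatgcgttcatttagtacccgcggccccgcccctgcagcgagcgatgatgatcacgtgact
The Cdkn1a window shown, that of the upstream of its 2 listed starts, held 2 matches, and each other window shown held 1. Sites farther from the listed starts lie outside these windows.

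Levels are log2 intensities relative to the 75th percentile of the same array, so a value of 0 is the level that 75% of the probes stay below. Between 57.1% and 72.6% of all probes were well above background on an array. In the tissue check, all 12 epithelial and all 10 white adipocyte markers were well above background on all 24 arrays, whereas 3 of 8 milk protein markers were. A trio of arrays stood apart, namely BALB/c 8-week sham A, BALB/c 8-week LDIR B and SPRET/EiJ LDIR A. Their mean level of 12 lymphocyte markers was 3.82 to 4.29, against -1.77 to -0.64 on the other 21 arrays, and their mean level of white adipocyte markers was 5.14 to 5.67 against 6.39 to 7.28. The arrays lay on 3 slides of 8: all 2-week arrays on slide 1, all SPRET/EiJ arrays on slide 3, and the 4-week and 8-week BALB/c arrays spread over slides 1 and 2 and slides 2 and 3. In bulk tissue, fewer cells of a type and less RNA per cell cannot be told apart.

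Of the 10 genes, 9 had a probe well above background on all 24 arrays. Neither probe of Eda2r, which encodes a receptor of the TNF receptor family, was well above background on any array, at -8.04 to -5.68. These values bound its level from above and give no fold. Its 2 probes stay in the counts over 14 probes, where their differences are not measured ones. The Cdkn1a level was read from the probe at chr17:29237377-29237436 (mm9, plus strand), printed in 10 spots per array whose SD was 0.03 to 0.15, with a median of 0.07. The other Cdkn1a probes, at chr17:29227986-29228045 and chr17:29235299-29235358, were well above background on 20 and 9 arrays, at -6.33 to -3.68 and -7.71 to -3.76. The brighter Trp53inp1 probe lay at chr4:11101174-11101233 and the other, at chr4:11092530-11092589, ran from -1.79 to -0.09.

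**Figure D1:**
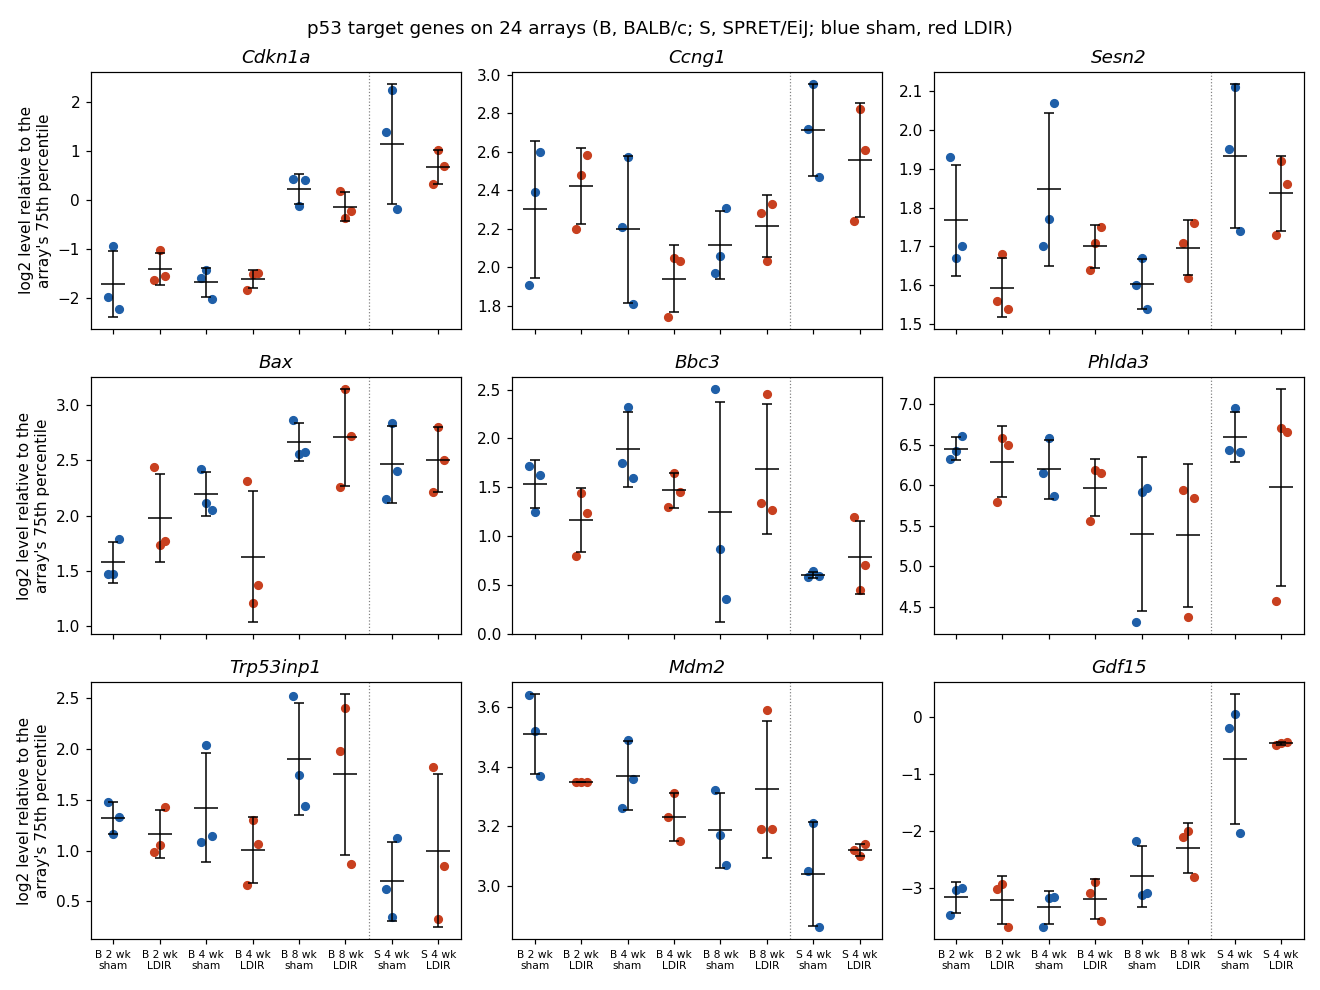
Level of each of the 9 measured genes on the 24 arrays (y axis, log2 relative to the array's 75th percentile) by group (x axis; B, BALB/c; S, SPRET/EiJ; the number is the week). Points are single arrays, sham in blue and LDIR in red. Cdkn1a lies between -2.22 and -0.95 on the 12 BALB/c arrays of weeks 2 and 4 and between -0.37 and 0.42 on the 6 of week 8.

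The members differed in how steady they were between arrays of a group. Sesn2, a stress-induced inhibitor of mTORC1 signalling, had a pooled within-group SD of 0.12 and ran from 1.54 to 2.11 over all 24 arrays. Mdm2 was as narrow, with a pooled SD of 0.13 and a range of 2.86 to 3.64. The widest spreads were those of Phlda3, a repressor of Akt, at 0.68, and Cdkn1a, the cyclin-dependent kinase inhibitor p21, at 0.56.

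At baseline, Cdkn1a and Gdf15 were lower and Bbc3 higher in BALB/c than in SPRET/EiJ mammary tissues, as judged by limma's adjusted p under 0.05 on the 4-week sham arrays. These were 3 of 14 member probes, against 18.8% of all probes. At the stricter thresholds of the methods, an unadjusted p under 0.001 with a change over 1.5-fold, 0 of 14 member probes passed, against 8.89% of all probes. The groups did not overlap in 4 of the 9 measured genes, against 38.0% of all probes, and the median difference of the 9 was -0.27 against -0.08 for all probes.

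Among genes that arrest the cell cycle, Cdkn1a read -1.60, -1.43 and -2.02 on BALB/c sham arrays A, B and C at 4 weeks and 1.39, 2.24 and -0.18 on SPRET/EiJ sham arrays A, B and C. All 3 BALB/c values were below all SPRET/EiJ values, and SPRET/EiJ sham C was the lowest of its group. The difference, BALB/c minus SPRET/EiJ, was -2.83 on the log2 scale (95% interval -4.27 to -1.39, limma adjusted p = 0.0219). The irradiated arrays gave a further reading of the strains: -1.83, -1.52 and -1.50 in BALB/c and 0.33, 1.02 and 0.69 in SPRET/EiJ. The groups again did not overlap, with a difference of -2.30 (-2.93 to -1.67, adjusted p = 0.00364), past the thresholds of the methods as well. Of the dimmer Cdkn1a probes, the one at chr17:29227986-29228045 was well above background on 3 BALB/c and 2 SPRET/EiJ arrays in each comparison and differed by 0.49 in sham and 0.67 in irradiated tissues (adjusted p = 0.55 and 0.221). The other was well above background on 1 or 2 of 3 arrays in each of these groups, so its strain difference was not measured. Ccng1, cyclin G1, which recruits a phosphatase to Mdm2, was 2.21, 2.57 and 1.81 in BALB/c sham and 2.72, 2.95 and 2.47 in SPRET/EiJ sham tissues. These groups overlapped and differed by -0.52 (-1.12 to 0.09, adjusted p = 0.218). After LDIR the Ccng1 groups did not overlap, with a difference of -0.61 (-1.21 to -0.02) and an adjusted p of 0.186. In irradiated tissues the strains did not overlap in 5 of the 9 measured genes, Mdm2 among them, against 33.5% of all probes.

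Gdf15, a secreted member of the TGF-beta superfamily that also answers to other cell stress, read -3.68, -3.18 and -3.16 in BALB/c sham and -0.19, 0.05 and -2.04 in SPRET/EiJ sham tissues. SPRET/EiJ sham C, the lowest of its group for Cdkn1a, was also the lowest here, and still above each of these BALB/c 4-week sham arrays. The difference was -2.62 (-3.96 to -1.27, limma adjusted p = 0.0227). In irradiated tissues Gdf15 read -3.08, -2.90 and -3.58 in BALB/c and -0.48, -0.45 and -0.43 in SPRET/EiJ. The 3 SPRET/EiJ arrays were nearly alike, and the difference was -2.73 (-3.34 to -2.13, adjusted p = 0.00175). With Cdkn1a, it made 2 of 14 member probes past the thresholds and 2 of 14 with an adjusted p under 0.05 in irradiated tissues, against 5.67% and 11.1% of all probes.

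Bbc3 encodes Puma, a BH3-only protein that triggers mitochondrial apoptosis. It read 1.75, 2.32 and 1.59 in BALB/c sham and 0.58, 0.64 and 0.59 in SPRET/EiJ sham tissues. Each of these BALB/c arrays was above each of these SPRET/EiJ arrays, by 1.29 on average (0.74 to 1.84, limma adjusted p = 0.0119). After LDIR the Bbc3 values were 1.30, 1.65 and 1.45 against 1.19, 0.45 and 0.70, again without overlap, and the difference was 0.69 (0.04 to 1.33, adjusted p = 0.174). The highest of these SPRET/EiJ values was that of array A, one of the trio with high lymphocyte markers, and without it the difference was 0.89 (adjusted p = 0.0351).

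The other members gave no strain difference with an adjusted p under 0.05. Bax, the pore-forming effector of mitochondrial apoptosis, differed by -0.27 in sham and -0.87 in irradiated tissues (adjusted p = 0.495 and 0.186). Phlda3 differed by -0.40 and -0.01. Trp53inp1, a nuclear cofactor that promotes p53 phosphorylation and autophagy, differed by 0.73 and 0.01. Its second probe, well above background on all 24 arrays, went the other way, with -0.28 and -0.38 (adjusted p = 0.575 and 0.497). Sesn2 differed by -0.08 and -0.14. Mdm2 was 3.26, 3.49 and 3.36 in BALB/c sham and 3.05, 3.21 and 2.86 in SPRET/EiJ sham tissues. These Mdm2 groups did not overlap, and the difference was 0.33 (-0.09 to 0.75, adjusted p = 0.255) in sham and 0.11 (-0.36 to 0.59) in irradiated tissues. With these arrays, the smallest strain difference that would reach an unadjusted p of 0.05 with 80% power was 1.49-fold for Mdm2 and 3.97-fold for Cdkn1a in sham tissues.

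**Figure D2:**
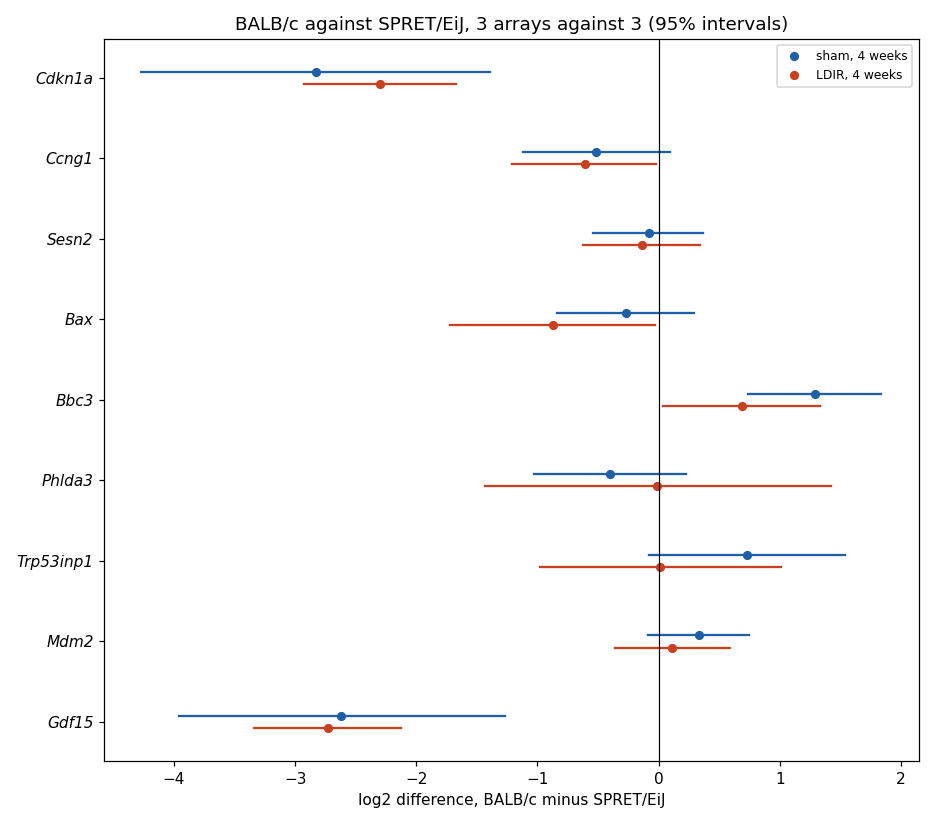
Difference between the strains at 4 weeks for each measured gene (x axis, BALB/c minus SPRET/EiJ, log2), in sham and in LDIR tissues. Points are limma estimates from 3 arrays against 3 and bars are 95% intervals. Cdkn1a (-2.83 and -2.30) and Gdf15 (-2.62 and -2.73) lie far left of 0 in both, and Bbc3 right of it (1.29 and 0.69).

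The strain differences rest on few arrays and on the choice of BALB/c group. The adjusted p of Cdkn1a rose to between 0.0541 and 0.0719 without BALB/c sham A, B or C or SPRET/EiJ sham A, and that of Gdf15 to between 0.058 and 0.0835 without BALB/c sham A, B or C or SPRET/EiJ sham A or B, whereas without SPRET/EiJ sham C the differences were -3.50 (0.00396) and -3.27 (0.00212). With the 8-week BALB/c sham group in place of the 4-week group, the differences were -0.92 for Cdkn1a (adjusted p = 0.408), -2.07 for Gdf15 (0.0842) and 0.65 for Bbc3 (0.533). No sham arrays of both strains shared a slide, and neither did the irradiated 4-week arrays. The only BALB/c arrays on slide 3 were 8-week LDIR B and C, of which B belongs to the trio with high lymphocyte markers. A slide term between the strains thus rests on these arrays and on 8-week LDIR A, on slide 2. With slide as a term over all 24 arrays, the sham differences were -3.66 for Cdkn1a (adjusted p = 0.0403), -2.71 for Gdf15 (0.133) and 1.52 for Bbc3 (0.462), and the irradiated ones -2.79 for Cdkn1a (0.0729) and -3.01 for Gdf15 (0.0411). Epithelial markers leaned higher in BALB/c. The median difference of the 12 markers was 1.52 in sham tissues, positive for 12 of 12. Of them, 0 passed the thresholds and 0 had a limma adjusted p under 0.05. Their mean level was 2.37 to 3.36 on the BALB/c sham arrays and 2.39, 0.10 and 2.36 on SPRET/EiJ sham A, B and C. In irradiated tissues 1 marker was higher past the thresholds and 4 had an adjusted p under 0.05. The parts of epithelial content and of sequence differences under the probes in the p53 target differences were not tested.

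No member probe passed the thresholds for a change after 10 cGy at any time or in either strain. The thresholds of the methods were an unadjusted p under 0.05 and a change over 1.5-fold. They were passed by 0 of 14 member probes at 2, 4 and 8 weeks in BALB/c, at 4 weeks in SPRET/EiJ, over the 3 BALB/c times together and in the test of whether the strains responded differently. The shares of all probes that passed were 3.05%, 4.83%, 1.92%, 2.21%, 1.16% and 3.59% in the same order. At an unadjusted p under 0.05 without the fold criterion, the count of member probes by limma was also 0 in all 6, and the smallest adjusted p was 0.775. The methods' t-test on single times gave 3422, 3106 and 1080 probes of all genes with an unadjusted p under 0.05 in BALB/c and 1223 in SPRET/EiJ, of which 0 remained after adjustment, as with limma.

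Cdkn1a, the member most used as a readout of p53 activity, read -1.99, -0.95 and -2.22 on the sham and -1.64, -1.03 and -1.56 on the LDIR arrays at 2 weeks. The groups overlapped, and LDIR minus sham was 0.31 (-0.58 to 1.20). At 4 weeks, the values given above for the strains overlapped as well, with a change of 0.06 (-0.45 to 0.58). At 8 weeks Cdkn1a was 0.42, -0.12 and 0.40 in sham and 0.19, -0.37 and -0.23 in LDIR tissues, a change of -0.37 (-1.06 to 0.32). In SPRET/EiJ the change was -0.47 (-1.88 to 0.95). Over the 18 BALB/c arrays, with time as a term, the Cdkn1a change was 0.00 with a 95% interval of -0.38 to 0.38. Leaving out 1 array moved 2 of these values past the thresholds, each by leaving out the array farthest from the others of its group: without BALB/c 2-week sham B the change was 0.69 (adjusted p = 0.95), and without SPRET/EiJ sham C it was -1.13 (adjusted p = 0.982). Ccng1 read 1.91, 2.39 and 2.60 in sham and 2.20, 2.48 and 2.58 in LDIR tissues at 2 weeks, and 1.97, 2.06 and 2.31 against 2.28, 2.03 and 2.33 at 8 weeks. Its groups overlapped at each time, and its pooled change was -0.01 (-0.28 to 0.26).

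Mdm2, which closes the feedback loop on p53, read 3.64, 3.52 and 3.37 in sham and 3.35, 3.35 and 3.35 in LDIR tissues at 2 weeks. The LDIR arrays were all below the sham arrays, by 0.02 at the nearest, and the change was -0.16 (-0.50 to 0.18, limma adjusted p = 0.869). It was the 1 gene of the 9 measured whose LDIR and sham groups did not overlap at 2 weeks, against 11.7% of all probes. At 4 weeks, 8 weeks and in SPRET/EiJ, 0 of 9 genes had groups that did not overlap, against 12.6%, 4.97% and 5.87% of all probes. The Mdm2 changes there were -0.14, 0.14 and 0.08, and the pooled BALB/c change was -0.05 (-0.24 to 0.13).

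Among the genes that promote cell death, Bax read 1.47, 1.47 and 1.79 in sham and 2.44, 1.73 and 1.77 in LDIR tissues at 2 weeks, and 2.42, 2.11 and 2.05 against 2.31, 1.21 and 1.37 at 4 weeks. The changes had opposite signs, 0.40 (-0.18 to 0.98) and -0.56 (-1.32 to 0.20). At 4 weeks LDIR array A was the one irradiated array within the sham range, and without it the change was -0.90, past the thresholds (adjusted p = 0.64). At 8 weeks the Bax change was 0.04, in SPRET/EiJ it was 0.04 and over the BALB/c times it was -0.04 (-0.44 to 0.36). Bbc3 read 1.72, 1.25 and 1.63 in sham and 0.80, 1.44 and 1.24 in LDIR tissues at 2 weeks. Its change was -0.38 (-0.92 to 0.17) there and -0.42 (-0.99 to 0.15) at 4 weeks. At 8 weeks Bbc3 spread widely, with 2.51, 0.87 and 0.35 in sham and 1.34, 2.45 and 1.27 in LDIR tissues, and the highest array of each group was the one with high lymphocyte markers. The 8-week change was 0.44 (-1.16 to 2.03), and without the trio it was 0.69, past the thresholds (adjusted p = 1).

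Phlda3 at 8 weeks read 4.31, 5.92 and 5.97 in sham and 5.94, 4.37 and 5.84 in LDIR tissues. The lowest array of each group was again one of the trio, and the change was -0.01 (-1.59 to 1.56). In SPRET/EiJ, Phlda3 was 6.43, 6.95 and 6.41 in sham and 4.57, 6.70 and 6.65 in LDIR tissues. Its change of -0.62 (-2.02 to 0.77) became 0.08 without LDIR array A. Trp53inp1 gave -0.16, -0.41 and -0.15 at 2, 4 and 8 weeks in BALB/c, and 0.30 in SPRET/EiJ, or -0.11 without that array. Its second probe gave 0.02, 0.13 and 0.18 in BALB/c, of opposite sign, and 0.23 in SPRET/EiJ. Sesn2 read 1.93, 1.67 and 1.70 in sham and 1.56, 1.68 and 1.54 in LDIR tissues at 2 weeks, and its pooled change was -0.08 (-0.25 to 0.10). Gdf15 gave -0.04, 0.16 and 0.49 in BALB/c and 0.27 in SPRET/EiJ, with a pooled BALB/c change of 0.20 (-0.18 to 0.58).

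**Figure D3:**
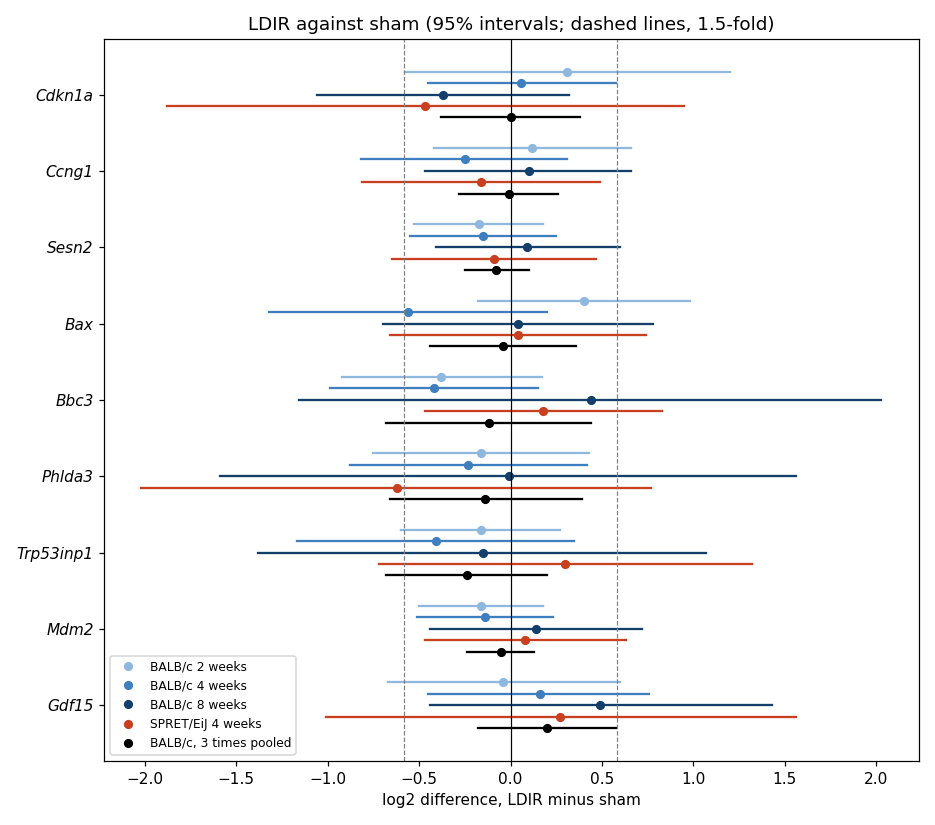
Change after 10 cGy for each measured gene (x axis, LDIR minus sham, log2) at 2, 4 and 8 weeks in BALB/c and at 4 weeks in SPRET/EiJ. The BALB/c times pooled are shown in black. Points are limma estimates, from 3 arrays against 3 or, when pooled, from 18 arrays with time as a term. Bars are 95% intervals. Every interval contains 0, and those of Bbc3 and Phlda3 at 8 weeks are among the widest (-1.16 to 2.03 and -1.59 to 1.56).

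The median change of the 9 measured members was -0.16, -0.23 and 0.09 at 2, 4 and 8 weeks in BALB/c and 0.04 in SPRET/EiJ, against -0.02, 0.02, -0.14 and 0.03 over all probes. Over the BALB/c times together it was -0.05 against -0.04. The differences between the strains in the LDIR change, BALB/c minus SPRET/EiJ, ran from -0.72 for Trp53inp1 to 0.53 for Cdkn1a, with a smallest adjusted p of 0.955. Chosen after seeing the data, an F test of whether the LDIR change depended on time in BALB/c gave 0 of 14 member probes with an unadjusted p under 0.05, against 3.74% of all probes. Within slide 2, which held 3 LDIR arrays and 1 sham array of week 4 and 1 LDIR array and 3 sham arrays of week 8, the changes ran from -0.41 (Bax) to 0.40 (Cdkn1a) and from -0.41 (Bax) to 0.68 (Gdf15). The 2-week arrays shared slide 1 and the SPRET/EiJ arrays slide 3, so those comparisons are within a slide as they stand.

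The size of change that could have been seen differed from gene to gene. It is given as the smallest change that would reach an unadjusted p of 0.05 with 80% power, from the fitted standard errors, which is a lower bar than an adjusted p. At 2 weeks it was 1.38-fold for Mdm2, 1.68-fold for the median member and 2.34-fold for Cdkn1a. At 4 weeks it was 1.42-fold for Mdm2, 1.73-fold at the median and 2.08-fold for Bax. At 8 weeks it was larger, 1.62-fold for Sesn2, 2.01-fold at the median and 4.57-fold for Bbc3. In SPRET/EiJ it was 1.69-fold for Mdm2, 1.96-fold at the median and 3.88-fold for Cdkn1a. With the BALB/c times pooled it was 1.19-fold for Sesn2, 1.45-fold at the median and 1.72-fold for Bbc3. Pooling did not lower it below the 2-week value for Bbc3 (1.68-fold) or Trp53inp1 (1.52-fold, against 1.54-fold pooled). The 95% interval of the change lay within 2-fold in both directions for 8, 7 and 4 of the 9 genes at 2, 4 and 8 weeks in BALB/c, for 5 in SPRET/EiJ and for all 9 when the BALB/c times were pooled. A change under 1.5-fold was detectable for 2, 2, 0 and 0 of the 9 genes in the single comparisons and for 6 in the pooled one.

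**Figure D4:**
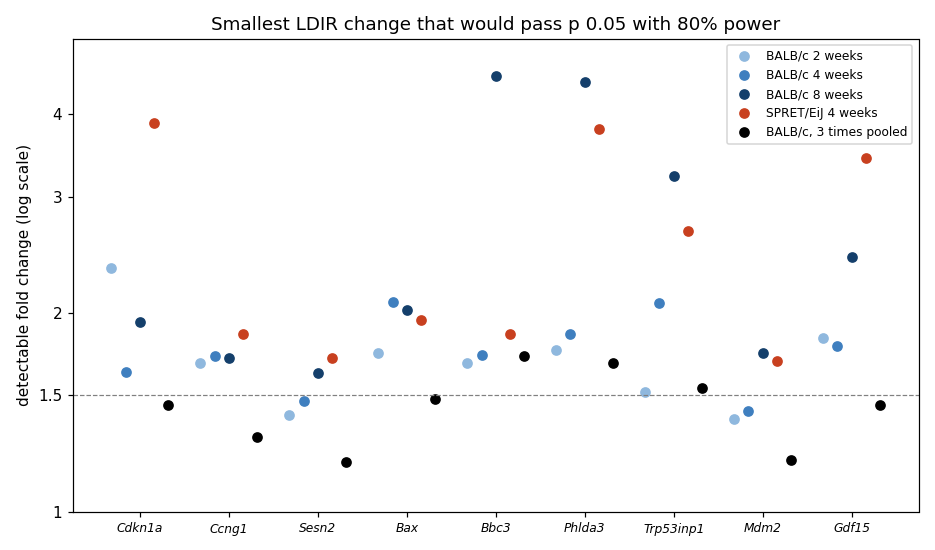
Smallest LDIR change (y axis, fold, log scale) that would reach an unadjusted p of 0.05 with 80% power, for each measured gene (x axis) and comparison. The pooled BALB/c comparison of 18 arrays runs from 1.19-fold (Sesn2) to 1.72-fold (Bbc3). It lies lowest except for Bbc3 and Trp53inp1, whose 2-week values are lower (1.68-fold and 1.52-fold). The 8-week comparison reaches 4.57-fold (Bbc3).

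Of the 9 measured members, 5 passed the thresholds of the LDIR tests between collection times in BALB/c, against 21.5% of all probes. This comparison was chosen after seeing the data: the 6 BALB/c arrays of week 8 against the 12 of weeks 2 and 4, with treatment as a term. Cdkn1a was -0.37 to 0.42 at week 8 (mean 0.05 ± 0.33, SD, n = 6) and -2.22 to -0.95 at weeks 2 and 4 (mean -1.61 ± 0.38, SD, n = 12). The groups did not overlap, and the difference was 1.66 (1.27 to 2.05, limma adjusted p = 7.31e-06). It was 1.94 in sham arrays alone (adjusted p = 0.00684), 1.38 in LDIR arrays alone (0.00485) and 2.03 within slide 2 (0.0464), where 4 arrays of week 8 stood at -0.12 to 0.42 and 4 of week 4 at -2.02 to -1.50. With slide as a term over all 24 arrays the Cdkn1a difference was 2.16, with an adjusted p of 0.0857. Mice of the 8-week groups were also older, so age and time of collection cannot be told apart. The mice of the sham arrays received no radiation dose.

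In all, 7 of 14 member probes passed an unadjusted p under 0.05 with a change over 1.5-fold in this comparison, 6 higher and 1 lower at week 8, against 21.5% of all probes. The same number had an adjusted p under 0.05, against 26.5%. They include the second Trp53inp1 probe and the Cdkn1a probe that was well above background on 9 of 24 arrays. The remaining Cdkn1a probe, well above background on 20 arrays, did not pass and differed by 0.13 (limma adjusted p = 0.795). Bax rose by 0.84 (0.43 to 1.25, limma adjusted p = 0.00414), and 5 of its 6 week-8 values, 2.56 to 3.14, stood above every week-2 and week-4 value, whose highest was 2.44. Gdf15 rose by 0.68 (0.29 to 1.07, adjusted p = 0.0115) and Trp53inp1 by 0.60 (0.15 to 1.05, adjusted p = 0.0474). Phlda3 fell by 0.84 (adjusted p = 0.0259). Mdm2, Ccng1, Bbc3 and Sesn2 differed by -0.11, -0.05, -0.05 and -0.08. Without the trio of lymphocyte-rich arrays, Cdkn1a (1.67) and Bax (0.68) kept an adjusted p under 0.05, whereas Phlda3 was -0.31 (0.186), Trp53inp1 0.28 (0.304) and Gdf15 0.45 (0.0817). The probes past the thresholds then numbered 3. Under normexp Gdf15 was 0.21 (0.0702). Bax, Gdf15, Trp53inp1 and Phlda3 each had an adjusted p above 0.05 in sham arrays alone, in LDIR arrays alone, within slide 2 and with slide as a term, at 0.0808, 0.0982, 0.387 and 0.397 for Bax. Leaving out 1 array at a time took the adjusted p of Trp53inp1 past 0.05 for 14 of 18 arrays (at most 0.151), and that of Phlda3 without 8-week sham A (-0.59) or LDIR B (-0.63), at most to 0.089.

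Many other gene groups moved between the times as well. Of 15 measured proliferation genes, 14 were higher past the thresholds at week 8 and 0 lower, and of 14 immediate early genes, 11 were higher and 0 lower. Of 34 other p53 targets, 13 were higher and 3 lower. Lymphocyte markers were higher in 8 of 12, of which 3 had an adjusted p under 0.05. Their mean level was 3.88 and 4.29 on the 2 week-8 arrays of the trio and -1.69 to -1.21 on the other 4, within the -1.77 to -1.04 of weeks 2 and 4. Skeletal muscle markers were higher in 7 of 11, of which 1 had an adjusted p under 0.05, whereas white adipocyte markers were lower in 7 of 10 and brown adipocyte markers in 6 of 8. Of all probes, 8.81% were called higher and 12.7% lower. Their part in the differences of the p53 targets was not tested.

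The trio of arrays with high lymphocyte markers also stood out for some members. Phlda3 read 4.31 to 4.57 on them and 5.56 to 6.95 on the other 21 arrays, so the ranges did not overlap. Bbc3 was 1.19 to 2.51 against 0.35 to 2.32, and Trp53inp1 was 1.82 to 2.52 against 0.33 to 2.04, with overlap. Over all 24 arrays, after subtraction of group means, Phlda3 followed the mean of the white adipocyte markers (r = 0.968) and ran against that of the lymphocyte markers (r = -0.889). Bbc3 (r = 0.857) and Trp53inp1 (r = 0.753) followed the lymphocyte markers. These correlations are descriptions over arrays that share slides and scaling, with the trio included.

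**Figure D5:**
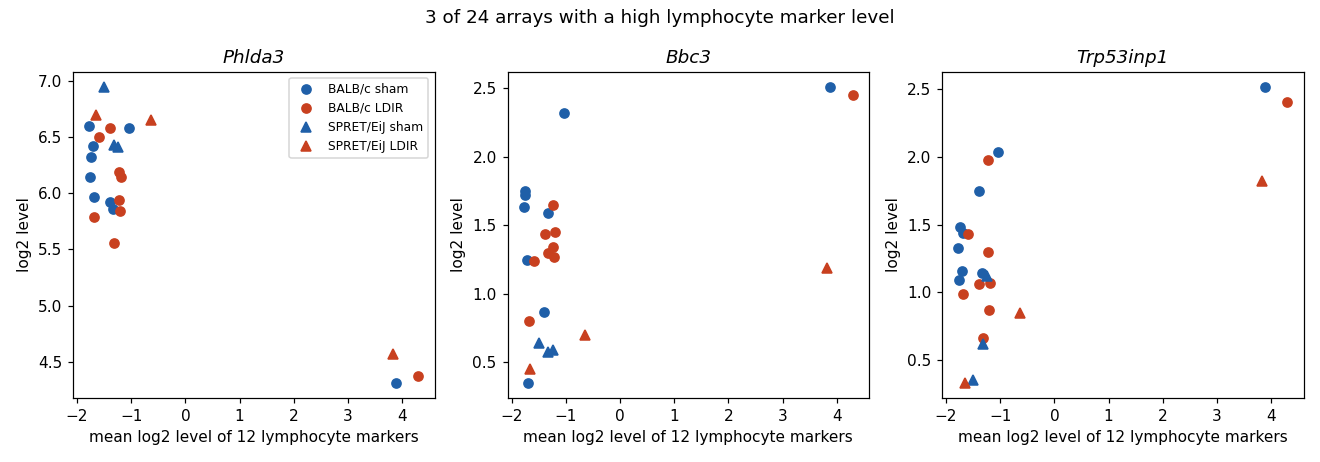
Level of Phlda3, Bbc3 and Trp53inp1 (y axes, log2 relative to the array's 75th percentile) against the mean level of 12 lymphocyte markers (x axes, log2) on 24 arrays. Points are arrays, and the 3 with lymphocyte levels of 3.82 to 4.29 lie apart from the other 21 and have the lowest Phlda3 levels (4.31 to 4.57).

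Among the members themselves, deviations from group means ran together most for Bbc3 and Trp53inp1 (r = 0.746), Ccng1 and Phlda3 (r = 0.695) and Cdkn1a and Gdf15 (r = 0.652), and Bbc3 and Phlda3 ran in opposite directions (r = -0.603). For each member, the probes of named genes whose level was most like its own were sought over the 24 arrays, group differences included, among at most 20199 probes detected on all arrays. Cdkn1a was most like Eif2b2 (r = 0.943), a subunit of a translation initiation factor, and Zmat5 (r = 0.931). Gdf15 was most like the amino acid transporter Slc7a6 (r = 0.942) and Synpo2 (r = 0.939). Bbc3 was most like Irf1 (r = 0.881), an interferon-induced transcription factor, and Tnfsf10 (r = 0.867), which encodes the death ligand TRAIL. Phlda3 was most like Slc1a5 and Ptp4a1 (r = 0.976 each), Bax like Surf6 (r = 0.930), Ccng1 like Nmt1 (r = 0.910), Trp53inp1 like Taf8 (r = 0.905) and Mdm2 like 5033414D02Rik (r = 0.875). The lowest best match was that of Sesn2, with Synj2 (r = 0.777).

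Other genes of the pathway were read from a list of 38 further p53 targets, of which 34 were on the array, and from 24 genes for p53 and its regulators, of which 23 were. Between strains in sham tissues, 1 of 34 targets was higher and 2 were lower in BALB/c past the thresholds, and 2 of 23 regulators were higher and 0 lower, against 5.36% and 3.53% of all probes. The targets were Dram1, a lysosomal membrane protein linked to autophagy (1.60, adjusted p = 0.00299), the epoxide hydrolase Ephx1 (-1.86, 0.00166) and the adenylate kinase Ak1 (-1.28, 0.00534). The regulators were Rchy1, also known as Pirh2, a ubiquitin ligase for p53 (3.40, 0.000202), and the kinase Atm (1.01, 0.00638). In irradiated tissues Rchy1 again passed, at 3.39 (0.000513), as did the target Plk2, a polo-like kinase (2.47, 0.0136). The part of sequence differences under the probes in these values was not tested.

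After LDIR, 0 of 34 targets and 0 of 23 regulators passed the thresholds at 2 weeks, in SPRET/EiJ and over the BALB/c times together. At 4 weeks in BALB/c, 1 target and 3 regulators were lower and 0 higher, against 1.44% of all probes called lower. They were the polo-like kinase Plk3 (-0.67, limma adjusted p = 0.775), the p53 inhibitor Mdm4 (-0.72, 0.699), the kinase Hipk2 (-0.70, 0.747) and Trp53 itself (-0.69, 0.775). Leaving out 1 of the 6 arrays in turn ended the call of Plk3 in 4 cases (all but sham A and LDIR B), of Trp53 in 4 (all but sham C and LDIR A) and of Hipk2 in 1 (sham B), with values of -0.87 to -0.46, -0.92 to -0.46 and -0.84 to -0.54. At 8 weeks 3 targets were higher and 1 lower, against 0.169% and 1.75% of all probes, and 0 regulators passed. They were Btg2 (1.05), Plk3 (0.68), Pml (0.67) and Rprm (-0.81), all with an adjusted p of 1. Leaving out 1 of the 6 arrays in turn ended the call of Pml in 5 cases (all but LDIR B), of Plk3 in 4 (all but sham A and LDIR B) and of Rprm in 2 (sham B and LDIR C), with values of 0.52 to 0.84, 0.51 to 0.82 and -0.94 to -0.72. At the same time 7 of 14 immediate early genes were higher past the thresholds, among them Fos (2.44) and Atf3 (2.55), also with an adjusted p of 1. Whether the LDIR change of these other pathway genes differs between times was not tested.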

How the data were processed

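RNA of the mammary gland was hybridised in a single colour to Agilent arrays. The deposited scanner files hold an intensity for each spot, background-subtracted and detrended by the scanner software per the file headers. A second deposited table holds the authors' log2 values, scaled to the 75th percentile, of which 99.8% lay within 0.01 of the values used here once both were centred. The 59305 spots of an array that are not controls were used, less 3777 outlier spots over all arrays (4 of them on member probes), and 0 spots were saturated. Intensities were log2 transformed, reduced by the 75th percentile of their array and averaged over the spots of a probe. Probe coordinates are the files' own (mm9), and no annotation of exons was used.

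Groups came from the labels. The 6 arrays of a comparison (18 for BALB/c over time, 12 for the strain interaction) were fitted with limma 3.58.1 in R 4.3.3 over all probes, and p-values were adjusted over all of them by Benjamini-Hochberg. Where a gene had more than 1 probe, the one with the highest mean level stands for it. The members, the gene lists and the rule for naming genes were chosen with earlier results of these data known. By that rule all members are named, up to 5 risers and 5 fallers of each list among those past the thresholds, and the closest pair of probes to each member. Of these, the p53 genes and a few others are printed. The procedure was tested on simulated data. The number of arrays limits the precision.

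Same-letter arrays deviated together at 2 weeks (correlations of 0.167, 0.481 and 0.172), but the labels do not call them pairs. At 8 weeks the correlations were -0.558, -0.564 and 0.545 for letters A, B and C. In the other comparisons they ran from -0.196 to 0.259. The main fits, those at 2 weeks included, used no pairing, and the letter entered only as a block among the alternatives. The member counts and values and those of the named p53 genes were recomputed with normexp (offset 50) as the background step, with quantile scaling, from the authors' own values, with outlier spots, without undetected probes, by the methods' t-test, with a replicate or slide block, in 1 fit of all 24 arrays, against other BALB/c sham arrays and without each array in turn. Counts over other lists, correlations and the F test were not. The comparison between times with its subsets, the F test and the fits without the lymphocyte-rich arrays were added after seeing the data.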

Additional observations from a re-analysis of the deposited data

How the results depend on the processing

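Under the alternatives, 54 values of LDIR change of the members gave 1008 further values, of which 0 had an adjusted p under 0.05 by limma and 6 passed the thresholds, 5 of them with 1 array left out. Counts are of member probes past the thresholds unless said otherwise. The strain count in sham tissues (0) was 1 with normexp, quantile normalization or all 9 BALB/c sham arrays, and 2 with detected probes only, all 24 arrays in one fit or slide as a random block. The count with an adjusted p under 0.05 (3) was 1 by the methods' t-test, 1 with slide as a block and 0 against the 8-week BALB/c sham group. In irradiated tissues (2 and 2) slide as a block gave 0 and 1, and 4 had an adjusted p under 0.05 without the 3 lymphocyte-rich arrays. Without those arrays the 8-week LDIR count (0) was 1. Between times (7 and 7) the counts were 3 and 4 without them, 1 and 0 with slide as a block, 3 and 1 in sham arrays, 2 and 1 on slide 2, with 3 past the thresholds under normexp, 4 with an adjusted p under 0.05 in the fit of all 24 arrays and 2 in LDIR arrays. Fewer arrays enter the subsets. For the other changes the cause was not tested.

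Leaving out 1 array gave 0 to 2 and 1 to 3 (adjusted) for strains in sham tissues, 2 to 4 (adjusted) in irradiated tissues, 0 to 1 at 2 and at 4 weeks, 0 to 2 in SPRET/EiJ, 0 to 1 for the interaction and 4 to 7 for either count between times. With the replicate letter as a block the strain counts were 0 and 3 in sham tissues and 2 and 2 in irradiated tissues. The counts were 0 for every LDIR comparison and 7 and 7 between times, so this block changed no count.

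Signs of member values turned as follows. Under normexp, Phlda3 was 0.01 at 8 weeks and Cdkn1a -0.04 in pooled BALB/c. Under quantile normalization, Sesn2 (strain sham) was 0.01, Phlda3 (strain LDIR) 0.04, and in pooled BALB/c Cdkn1a -0.01 and Ccng1 0.02. With slide as a block, Bax was 0.26 and Sesn2 0.11 (strain sham), Trp53inp1 -0.33 (strain LDIR), Ccng1 0.14, Phlda3 0.11 and Gdf15 -0.03 at 4 weeks, Bax -0.41, Phlda3 0.54 and Trp53inp1 0.07 at 8 weeks, Ccng1 0.14 and Phlda3 0.16 in pooled BALB/c, and Ccng1 0.29 in the interaction. Against the 8-week sham group Bax was 0.20. Without the 3 lymphocyte-rich arrays Bax was -0.08 at 8 weeks, Bbc3 -0.03, Phlda3 0.08 and Trp53inp1 -0.11 in SPRET/EiJ, and Phlda3 -0.31 in the interaction. With 1 array left out, the ranges that crossed 0 were, between strains, Sesn2 -0.19 to 0.01 (sham), Phlda3 -0.71 to 0.36 and Trp53inp1 -0.32 to 0.42 (LDIR). At 2 weeks they were Ccng1 -0.07 to 0.27, Phlda3 -0.31 to 0.09 and Gdf15 -0.19 to 0.21, and at 4 weeks Cdkn1a -0.10 to 0.19 and Gdf15 -0.01 to 0.35. At 8 weeks they were Bax -0.18 to 0.27, Bbc3 -0.01 to 1.07, Phlda3 -0.56 to 0.49 and Trp53inp1 -0.48 to 0.29. In SPRET/EiJ they were Cdkn1a -1.13 to 0.08, Mdm2 -0.01 to 0.16, Bax -0.11 to 0.23, Bbc3 -0.03 to 0.34, Phlda3 -0.99 to 0.08, Trp53inp1 -0.11 to 0.64 and Gdf15 -0.38 to 0.66. In pooled BALB/c they were Cdkn1a -0.09 to 0.09, Ccng1 -0.08 to 0.06, Bax -0.14 to 0.06, Bbc3 -0.29 to 0.02 and Phlda3 -0.30 to 0.00, and in the interaction Cdkn1a -0.01 to 1.20, Ccng1 -0.29 to 0.09, Phlda3 -0.31 to 0.76, Sesn2 -0.14 to 0.05 and Gdf15 -0.51 to 0.54.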

Other observations

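Genes of the integrated stress response, the ATF4-driven programme that also induces Gdf15, Sesn2 and Trib3, were read beside the p53 targets. Of 13 such genes, 0 were higher and 1 was lower in BALB/c than in SPRET/EiJ sham tissues past the thresholds, namely Trib3, a pseudokinase (-2.59, limma adjusted p = 0.00803). In irradiated tissues 1 was higher and 0 lower, namely Psat1, an enzyme of serine synthesis (1.46, adjusted p = 0.0147). After LDIR, 0 of 13 passed at 2 and at 4 weeks in BALB/c and in SPRET/EiJ. At 8 weeks 1 was higher, Ppp1r15a (0.80), which encodes a phosphatase subunit that reverses the response, with an adjusted p of 1 by limma. Of 10 glucocorticoid response genes, 2 were lower after LDIR at 8 weeks, Fkbp5 (-1.86) and Zbtb16 (-1.42), both with an adjusted p of 1, and 0 were higher, against 1.75% of all probes called lower. These lists hold none of the 10 p53 targets described above.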
